A study of Mus musculus with 4 samples.

Results

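The mitochondrial ribosomal proteins are described here in single crypt cells of the mouse small intestine. Every gene whose symbol is Mrpl or Mrps followed by a number was taken, without pseudogenes, which gave 77 of the 27998 genes in the deposited tables (48 Mrpl and 29 Mrps genes). Live EpCAM+ CD45- cells had been sorted from the crypts of mice aged 8 weeks and processed with version 2 of the 10x 3′ chemistry, as 4 libraries. Of these, 2 were labelled Slc7a5 fl/fl (the gene for the amino acid transporter LAT1 with loxP sites, no Cre) and 2 Slc7a5 IEC-KO (the same floxed alleles with villin-Cre, which is active throughout the intestinal epithelium). The labels mention 4 mice without assigning them to libraries, so the p values below measure the spread between libraries, which may be technical.

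The mitochondrial ribosome translates the few mRNAs that the mitochondrial genome encodes, all for subunits of the respiratory chain and of ATP synthase. Its proteins are all encoded in the nucleus, made on cytosolic ribosomes and imported, and they assemble with mitochondrial rRNA into a small (Mrps) and a large (Mrpl) subunit. Many have a counterpart in the bacterial ribosome, while the others were added during the evolution of mitochondria. Paneth cells, the antimicrobial cells at the crypt base, devote much of their mRNA to alpha-defensins (Defa genes).

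Cells with 30% or more of their UMIs (unique molecular identifiers, each a captured transcript) in Defa symbols were taken as Paneth cells, and cells under 20% as other cells. This gave 2020 and 1950 Paneth cells and 1493 and 1178 other cells in the fl/fl libraries. The IEC-KO libraries gave 2019 and 2336 Paneth cells and 6680 and 6090 other cells. The 7 Paneth markers outside the Defa family took 5.46 to 7.71% of UMIs in the Paneth cells and 2.02 to 2.33% in the other cells. Defa symbols took 41.2% and 44% of the UMIs of fl/fl Paneth cells and 36.8% and 37.2% of those of IEC-KO Paneth cells. Cells between the limits numbered 120 and 89 in the fl/fl libraries and 1305 and 1218 in the IEC-KO libraries. Paneth cells were 55.6% and 60.6% of the cells of the fl/fl libraries and 20.2% and 24.2% of those of the IEC-KO libraries. UMIs per Paneth cell were higher in the fl/fl libraries, with medians of 46965 and 52851.5 against 13782 and 20159. Slc7a5 itself was counted at 1.16 and 1.04 CPM in fl/fl Paneth cells and at 3.42 and 3.73 CPM in IEC-KO Paneth cells. CPM are counts scaled to library totals that were adjusted by TMM, explained below. The log2 fold change of Slc7a5 was 1.71 (standard error 0.15, edgeR adjusted p = 5.31e-09). Counts of the targeted gene were therefore higher in the libraries labelled as its knockout, and every direction given here rests on the labels. The 3′ kit reads the end of a transcript and does not show whether it holds the floxed exon, so these counts do not test the labels.

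All 77 genes had UMIs in both classes of each library. Together they gave 93007 to 180744 UMIs per library in Paneth cells and 110966 to 384862 in other cells. Mrpl53 was the exception in depth, with 6 to 14 UMIs in the Paneth cells and 3 to 28 in the other cells of a library, and its change could not be told from 0 (log2 fold change −0.38 in Paneth cells, standard error 0.48).

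In Paneth cells, a larger part of the transcripts came from the mitochondrial ribosomal protein genes in the libraries labelled IEC-KO. They took 0.184% and 0.175% of UMIs in the fl/fl libraries and 0.302% and 0.299% in the IEC-KO libraries, a ratio of 1.68. With the Defa symbols left out of the total, the shares were 0.312 ± 0.000414% and 0.477 ± 0.00142% (mean ± SD, n = 2 each), a ratio of 1.53. The shares of the fl/fl and IEC-KO libraries did not overlap on either scale. Scaled by library size alone, however, the typical gene tested also rose in Paneth cells, by nearly as much (medians below). The rise in share is therefore not a rise of that size relative to the typical gene. The cytosolic ribosomal protein genes, given for reference, rose from 6.74% to 16.7% of the same total, a ratio of 2.48. Counted per cell, the order was the other way round. A Paneth cell held 86 and 92.7 UMIs of these genes in the fl/fl libraries and 46.1 and 68.5 in the IEC-KO libraries. There, UMIs outside Defa symbols also fell from 28590 to 12007 per cell on average. The other cells fell likewise, from 90.9 to 55.3 UMIs of these genes and from 11261 to 7303 UMIs outside Defa symbols. Cells of the IEC-KO libraries thus held fewer UMIs in both classes, so the fall per cell was not particular to Paneth cells.

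In the other cells the summed share moved little, though it was lower in both IEC-KO libraries than in either fl/fl library. It was 0.761% and 0.755% of UMIs in the fl/fl libraries and 0.733% and 0.692% in the IEC-KO libraries, a ratio of 0.939. The share was highest in the part of these cells rich in cell cycle genes, at 1.09% and 1.07% in the fl/fl libraries and 1.2% and 1.1% in the IEC-KO libraries. It was 0.657 to 0.689% in the part rich in goblet genes, and the fl/fl and IEC-KO libraries overlapped there. In the remaining part the share was 0.875% and 0.84% in the fl/fl and 0.95% and 0.912% in the IEC-KO libraries, without overlap. The parts thus did not share the direction of the other cells as a whole.

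**Figure D1:**
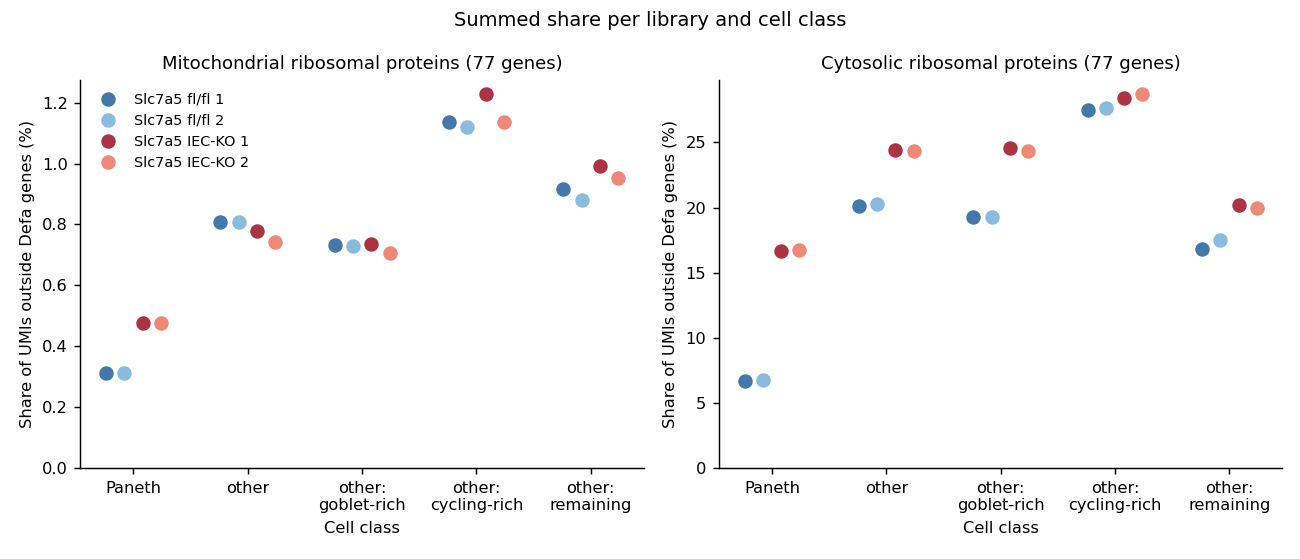
Share of UMIs outside Defa genes (%) taken by the 77 mitochondrial (left) and the 77 cytosolic (right) ribosomal protein genes, by cell class; each point is a library, in blue for Slc7a5 fl/fl and red for Slc7a5 IEC-KO. In Paneth cells the mitochondrial share was 0.312% on average in the fl/fl and 0.477% in the IEC-KO libraries, and in the other cells it was 0.807% and 0.761%. Scaled by library size alone, the typical gene tested also rose in Paneth cells, so these shares are not changes relative to it.

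Gene by gene, UMIs were summed per library and class. The sums were scaled by TMM, which sets the typical gene to no change, and tested in edgeR (quasi-likelihood F-test) with Benjamini-Hochberg adjustment over all genes tested. In Paneth cells 22 of the 77 genes were higher in the IEC-KO libraries at an adjusted p under 0.05, 6 were lower and 49 did not pass. Of all 12492 genes tested, 20.2% were higher and 19.8% lower. The median log2 fold change of the 77 genes was 0.10, against 0.00 for all genes and 0.83 for the cytosolic ribosomal protein genes, of which 77 of 77 were higher. Without TMM, scaled by library size alone, 76 of the 77 genes were higher and 0 lower, given without the share of all genes past the threshold in that fit. The median of all genes then stood at 0.62 and that of the 77 genes at 0.72. The scalings differ by a factor per library, which shifts all genes nearly alike. So the distance between the medians, 0.10 under both, could hardly change and is no check. It was 0.055 without fl/fl library 1 and 0.049 with every cell thinned to 2000 UMIs. Changes are given below relative to the typical gene.

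The count depended on single libraries. It was 11 higher and 4 lower without fl/fl library 1, 10 and 2 without fl/fl library 2, 15 and 8 without IEC-KO library 1, and 25 and 4 without IEC-KO library 2. The share of the 77 genes that was higher, 28.6% against 20.2% of all genes with 4 libraries, was 14.3% against 15.8% without fl/fl library 1 and 13% against 16.1% without fl/fl library 2, and so no longer above that of all genes. It was 19.5% against 17.7% without IEC-KO library 1 and 32.5% against 17.3% without IEC-KO library 2. Of the 22 higher genes, 8 stayed past the threshold whichever library was left out, and so did 1 of the 6 lower genes. The genes described first are those that kept their call under every setting tried except scaling by library size alone, which shifts all genes. These were Mrps28, Mrpl52, Mrpl24, Mrpl33, Mrpl23, Mrpl10 and Mrps18b among the higher genes and Mrps36 among the lower ones.

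Mrps28 (ENSMUSG00000040269, chromosome 3, GRCm38 8802146 to 8923918, minus strand) encodes a protein of the small subunit. It was counted at 9.33 and 10.2 CPM in the Paneth cells of the fl/fl libraries and at 17 and 15.3 CPM in those of the IEC-KO libraries. Both IEC-KO libraries thus lay above both fl/fl libraries, and the log2 fold change of 0.72 (standard error 0.08, edgeR adjusted p = 2.31e-07) was the largest of the 77.

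Mrpl52 (ENSMUSG00000010406, chromosome 14, 54426909 to 54429756, plus strand), a large subunit protein with no bacterial counterpart, followed with 140 and 132 CPM against 201 and 219 CPM. Its log2 fold change was 0.63 (standard error 0.08, edgeR adjusted p = 6.93e-07). The 2 groups were 1.55-fold apart, far beyond the SD of 5.78 and 12.7 CPM within them.

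Mrpl24 and Mrpl33, both large subunit proteins with a bacterial counterpart, came next. Mrpl24 (chromosome 3, 87919506 to 87923672) had 25.2 and 23.5 CPM in fl/fl and 37.1 and 34.2 CPM in IEC-KO Paneth cells, a log2 fold change of 0.55 (standard error 0.07, edgeR adjusted p = 1.75e-06). It overlaps Rrnad1 on the opposite strand. Mrpl33 had 38.2 and 39.8 CPM against 53.5 and 53.4 CPM, a log2 fold change of 0.45 (standard error 0.07, edgeR adjusted p = 9.46e-06). In both genes the fl/fl and IEC-KO libraries were well separated.

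Mrpl10 encodes the base of the flexible stalk that recruits translation factors to the large subunit, and Mrpl12 the stalk protein it carries, which is also known to bind the mitochondrial RNA polymerase. The pair moved in opposite directions relative to the typical gene, although Mrpl12 stood at 0.42 with scaling by library size alone. Mrpl10 was counted at 5.64 and 5.39 CPM in fl/fl and 6.77 and 7.46 CPM in IEC-KO Paneth cells (log2 fold change 0.38, standard error 0.09, edgeR adjusted p = 0.00194). Mrpl12 was counted at 100.1 and 98.1 CPM against 90 and 83.5 CPM (log2 fold change −0.19, standard error 0.07, edgeR adjusted p = 0.0306), and this call was lost without fl/fl library 1, fl/fl library 2 or IEC-KO library 2.

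Mrps36 (ENSMUSG00000061474, chromosome 13, 100735955 to 100744659, minus strand) fell most relative to the typical gene, with 0.20 under scaling by library size alone. Its product was named as a small subunit protein but is now known as a component of the 2-oxoglutarate dehydrogenase complex. It had 23.5 and 26 CPM in fl/fl and 18 and 18.9 CPM in IEC-KO Paneth cells. The log2 fold change was −0.42 (standard error 0.07, edgeR adjusted p = 7.91e-05), with no overlap between the groups.

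**Figure D2:**
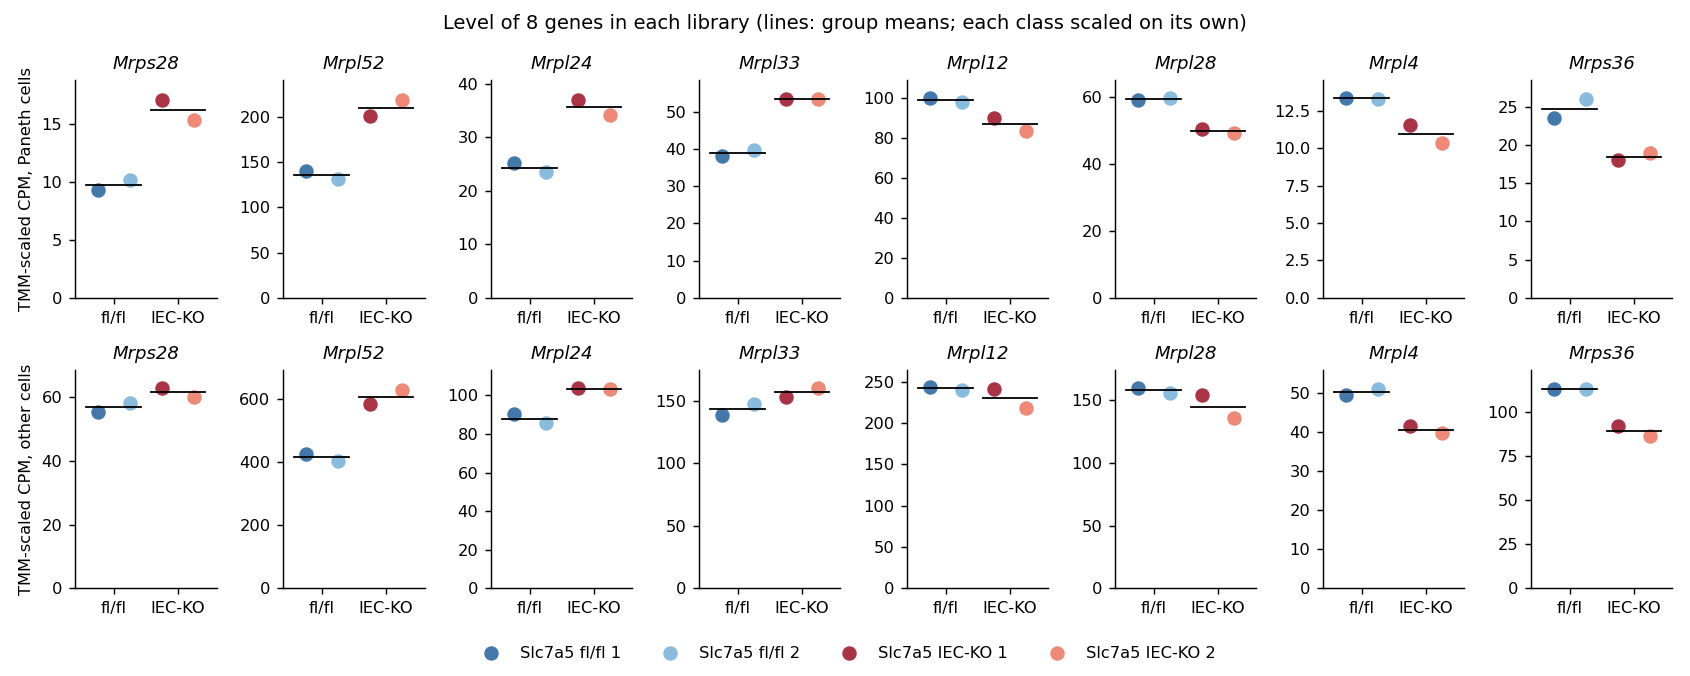
Level of 8 genes in TMM-scaled CPM in Paneth cells (top row) and other cells (bottom row); points are libraries, lines are the means of the 2 libraries of a group, each axis starts at 0, and the classes were scaled separately, so heights compare within a panel only. In both classes Mrpl52 and Mrpl24 were higher and Mrpl4 and Mrps36 lower in the IEC-KO libraries, while with scaling by library size alone the 2 latter stood at 0.33 and 0.20 on the log2 scale in Paneth cells.

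The 77 genes were also grouped by role, and the shares below stand beside 20.2% of all genes higher and 19.8% lower in Paneth cells. Of the 16 small subunit proteins with a bacterial counterpart 6 (37.5%) were higher and 0 lower, with a median log2 fold change of 0.14. Besides Mrps28 these were Mrps5, Mrps15, Mrps18c, Mrps10 and Mrps17, with log2 fold changes of 0.26, 0.22, 0.21, 0.19 and 0.19, and each of these 5 calls was lost without at least one library, so that Mrps28 alone held in every such fit. Of the 10 small subunit proteins without a bacterial counterpart, 2 (20%) were higher, Mrps18b at 0.29 and Mrps26 at 0.29, the latter lost without fl/fl library 2.

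Of the 30 large subunit proteins with a bacterial counterpart, 9 (30%) were higher and 5 (16.7%) lower (median 0.07). Mrpl23, which lies near the exit of the peptide tunnel, rose by 0.42 (47.1 and 48.5 CPM against 67.7 and 60.4), Mrpl17 by 0.32 and Mrpl1 by 0.44, the last lost without IEC-KO library 2. The 5 lower genes were Mrpl4 (−0.30), Mrpl28 (−0.25), Mrpl2 (−0.25), Mrpl12 (−0.19) and Mrpl14 (−0.19). Mrpl2 and Mrpl14 belong to the conserved core of the subunit. Mrpl28 had 59.1 and 59.7 CPM against 50.5 and 49.3 CPM, and Mrpl4 13.3 and 13.3 CPM against 11.5 and 10.3 CPM, so that the groups did not overlap. The calls of Mrpl28 and Mrpl2 were lost without fl/fl library 2, that of Mrpl4 without IEC-KO library 2, and that of Mrpl14 without either fl/fl library. Scaled by library size alone, these genes turned to positive values like almost all genes, with Mrpl4 at 0.33 and Mrps36 at 0.20. They remained below the median of all genes, 0.62, because a shift common to all genes leaves their order as it was.

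Of the 20 large subunit proteins without a bacterial counterpart, 5 (25%, near the share of all genes) were higher and 0 lower (median 0.06). They were Mrpl52, Mrpl39, Mrpl54, Mrpl38 and Mrpl57. The calls of Mrpl54, Mrpl38 and Mrpl57 depended on single libraries. With 1 library left out, their log2 fold changes went down to 0.15, 0.16 and 0.13. Mrpl39, a relative of threonyl-tRNA synthetase, had 3.24 and 4.33 CPM against 4.6 and 4.83 CPM (log2 fold change 0.32), a call lost without fl/fl library 1 or IEC-KO library 2. Mrps18a and Mrps30, which sit in the large subunit in spite of their symbols, did not pass the test, with log2 fold changes of 0.07 and 0.12.

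**Figure D3:**
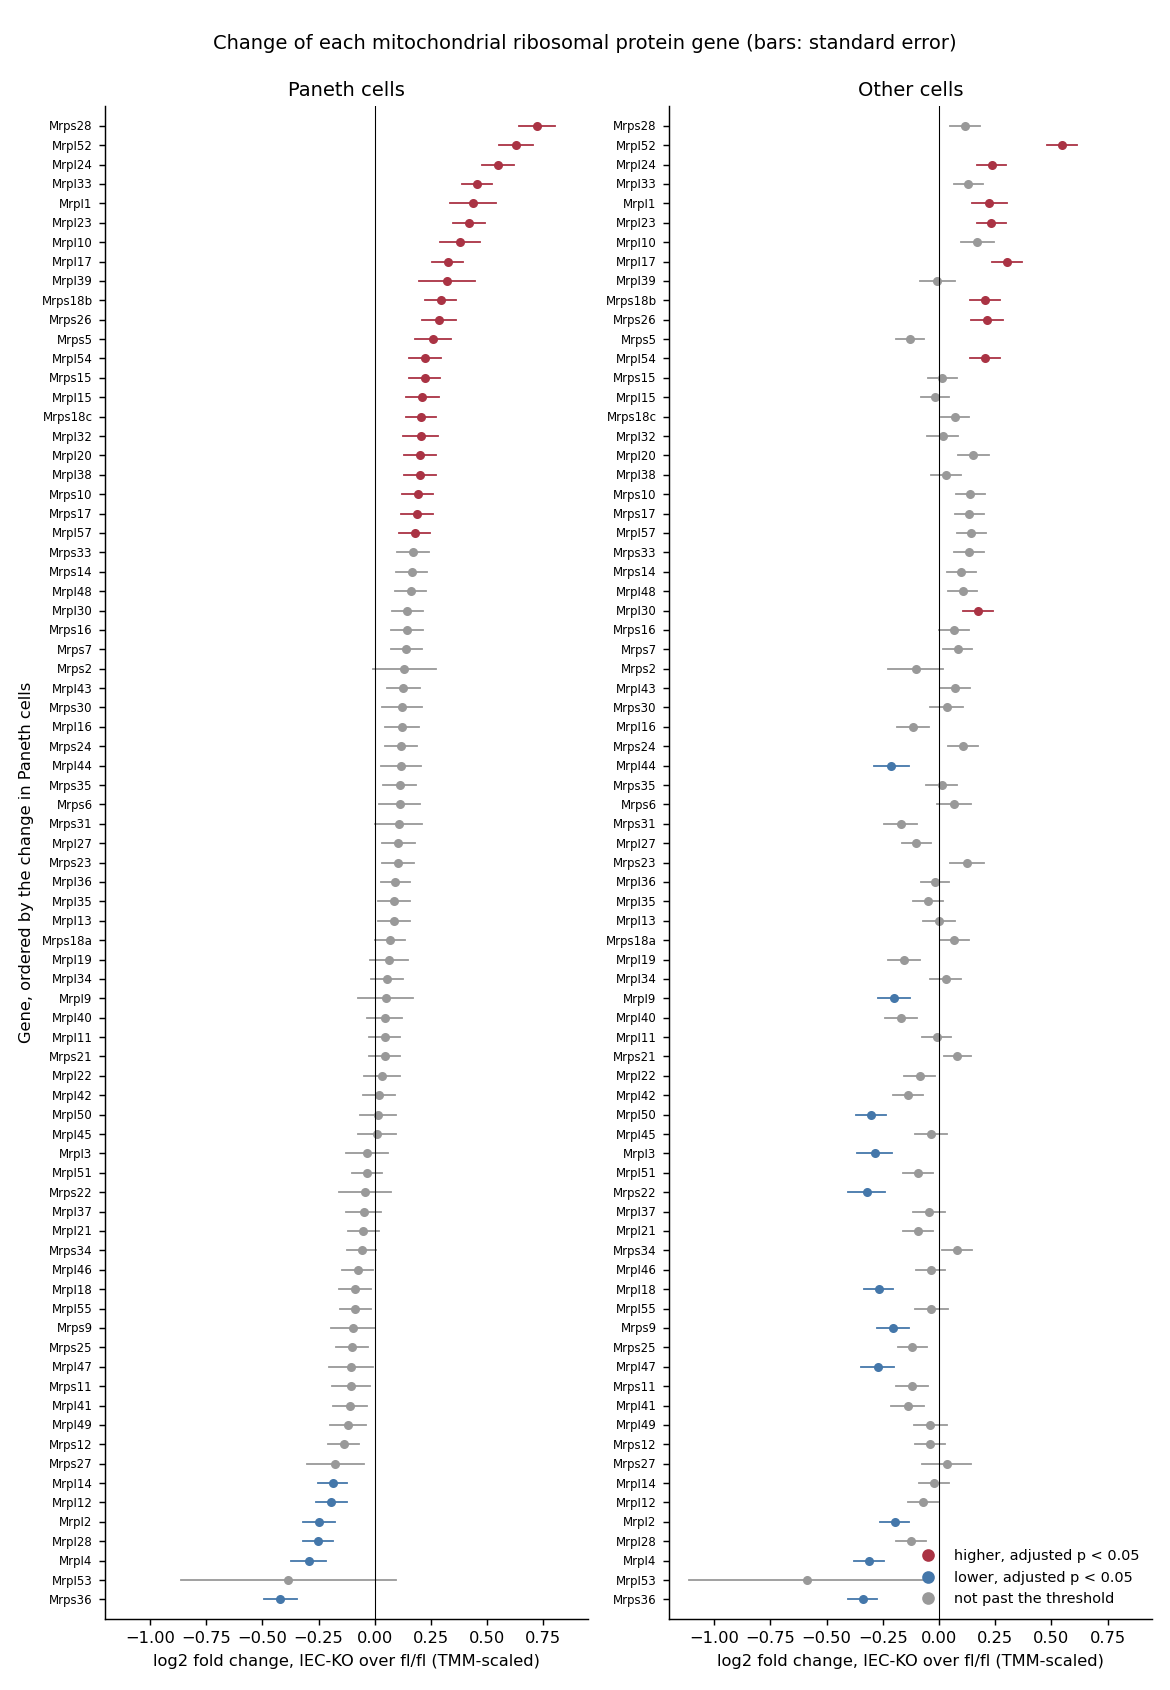
Log2 fold change (IEC-KO over fl/fl, TMM-scaled) of each of the 77 genes in Paneth cells (left) and other cells (right), in the order of the change in Paneth cells, with its standard error; red and blue mark genes higher and lower at an adjusted p under 0.05. In Paneth cells 22 were higher and 6 lower, beside 20.2% and 19.8% of all genes tested, with Mrps28 highest and Mrps36 lowest. With scaling by library size alone 76 were higher and 0 lower, where the typical gene tested also rose. In other cells 9 were higher and 11 lower, beside 17% and 16.7% of all genes tested.

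The other cells showed no common direction. There 9 of the 77 genes were higher in the IEC-KO libraries and 11 lower, where 17% of all 12377 genes tested were higher and 16.7% lower, and the median log2 fold change was −0.01. Without each library in turn there were 4 higher and 6 lower (fl/fl library 1), 3 and 9 (fl/fl library 2), 7 and 16 (IEC-KO library 1), and 16 and 9 (IEC-KO library 2). For other cells and their parts, counts without a library are given without the share of all genes in that fit. Scaled by library size alone there was 1 higher and there were 35 lower, also given without the share of all genes in that fit. The median of all genes was then at −0.15 and that of the 77 genes at −0.16. Of the 22 genes higher in Paneth cells 8 were also among the 9 higher here, and of the 6 lower in Paneth cells 3 were among the 11 lower here. Both classes come from the same libraries. The same overlap among all genes was not counted, so these counts do not set the 77 genes apart.

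Mrpl52 again stood out, with 423 and 404 CPM in the fl/fl and 582 and 628 CPM in the IEC-KO libraries (log2 fold change 0.55, standard error 0.07, edgeR adjusted p = 2.24e-06). Mrpl17 rose by 0.30 on the log2 scale, from 124 and 121 CPM to 157 and 145 CPM. The remaining higher genes were Mrpl24, Mrpl23, Mrpl1, Mrps26, Mrpl54, Mrps18b and Mrpl30, at 0.17 to 0.23, and each of these 7 calls was lost without at least one library.

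Mrps36 was again the lowest of the genes past the threshold, with 113 and 113 CPM against 92.3 and 86.7 CPM (log2 fold change −0.34, standard error 0.06, edgeR adjusted p = 0.000335). Mrps22, a small subunit protein with no bacterial counterpart, had 17 and 19 CPM against 14.4 and 14.4 CPM (−0.32), a call lost without fl/fl library 2. Mrpl4 fell by 0.31, Mrpl50 by 0.30, Mrpl47 by 0.27 and Mrpl18 by 0.27, and these 4 calls held without any library. Mrpl18, known to bring 5S rRNA into mitochondria, went from 170 and 167 CPM to 146 and 134 CPM. The other lower genes were Mrpl3, Mrpl44, Mrps9, Mrpl9 and Mrpl2, at −0.29 to −0.20, and each was lost without at least one library. Mrpl12, Mrpl10, Mrps18a and Mrps30 did not pass here, with −0.07, 0.17, 0.07 and 0.03.

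The other cells were divided further by the summed shares of goblet and cell cycle genes. In the goblet-rich part (867 to 5794 cells per library) 10 of 77 genes were higher and 4 lower, beside 13.1% and 12.6% of all 12003 genes, and the median was 0.05. Mrpl52 (0.45), Mrpl24 (0.36), Mrpl1 (0.35) and Mrps18b (0.31) led the higher genes, and the 4 lower genes were Mrps36 (−0.30), Mrpl4 (−0.28), Mrpl18 (−0.27) and Mrpl3 (−0.26). Without a library there were 5 higher and 2 lower (fl/fl library 1), 4 and 5 (fl/fl library 2), 10 and 14 (IEC-KO library 1), or 18 and 3 (IEC-KO library 2).

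In the cycling-rich part (164 to 334 cells per library) 0 of the 76 genes tested passed the edgeR threshold. DESeq2 also gave 0 calls there. The background past the same edgeR threshold was equally low, at 1.03% of genes higher and 0.355% lower. For Mrpl52 the change was 0.29 on the log2 scale (standard error 0.08, edgeR adjusted p = 0.0876) and for Mrps21 0.31 (standard error 0.08, edgeR adjusted p = 0.069). The median standard error of the 76 genes was 0.10 there, against 0.07 in the goblet-rich part. In the remaining other cells (147 to 552 cells) 2 of 76 genes were higher, Mrpl52 at 0.44 and Mrps28 at 0.44, and 0 were lower, beside 4.36% and 3.62% of all genes. Without fl/fl library 1, fl/fl library 2 or IEC-KO library 1 there was 1, Mrpl52, and without IEC-KO library 2 there were 3.

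Cell composition moved with the label in the other cells. The summed level of the 22 cell cycle genes was 0.117% and 0.118% of UMIs in the fl/fl and 0.0545% and 0.0567% in the IEC-KO libraries, and 22 of 22 were lower in edgeR. The 9 enterocyte markers stood at 0.465% and 0.505% against 0.275% and 0.246%. The 9 goblet markers stood at 13% and 12.5% against 13.5% and 13.6%. The 8 enteroendocrine markers stood at 0.0482% and 0.0524% against 0.148% and 0.134%. Within the goblet-rich part cell cycle genes were at 0.0987% and 0.0991% against 0.0457% and 0.0483%, and enterocyte markers at 0.224% and 0.215% against 0.13% and 0.134%. Within the remaining part, where Mrpl52 and Mrps28 were higher, enteroendocrine markers were at 0.0405% and 0.0699% against 0.799% and 0.648%. The part of these shifts in the changes of single genes was not tested. In Paneth cells, cell cycle genes took 0.0134 to 0.0142% against 0.0113 to 0.0129% of UMIs and enterocyte markers 0.12 to 0.127% against 0.0674 to 0.0774%. The 9 genes of the dissociation stress list took 0.0054 to 0.0058% of their UMIs in the fl/fl and 0.0108 to 0.0109% in the IEC-KO libraries. Goblet markers were at 4.17% and 3.73% against 4.78% and 5.29%. The 6 stem cell markers were at 0.00539% and 0.00528% against 0.00733% and 0.00794%, and the 7 Paneth markers at 7.71% and 6.95% against 6.7% and 5.46%. In none of these lists did the fl/fl and IEC-KO libraries overlap. These are shares of all UMIs, a scale on which the typical gene tested also rose in Paneth cells. A higher share here is therefore not a rise relative to the typical gene. The part of these differences in the Paneth cell results was not tested.

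The change in Paneth cells was then compared directly with the change in the other cells of the same libraries, as a genotype by class term with library as a block. It passed the threshold in 15 of the 77 genes. In all 15 the change was more positive in Paneth cells, where 11% of the 13039 genes tested passed in that direction and 11.3% in the other. The median difference was 0.08, and for the cytosolic ribosomal protein genes it was 0.47, with 75 of 77 past the threshold. The counts that follow, each without a library, stand without the share of all genes in the same fit. There were 8 such members without fl/fl library 1, 13 without fl/fl library 2, 17 without IEC-KO library 1, and 10 with 2 in the opposite direction without IEC-KO library 2.

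Mrps28 had the largest difference, 0.62 (standard error 0.08, edgeR adjusted p = 3.81e-12): in the other cells its level was 55.6 and 58.2 CPM in the fl/fl and 63.1 and 60.1 CPM in the IEC-KO libraries, a log2 fold change of 0.12 that did not pass the threshold. Its term passed under every setting tried. Mrps5 followed with 0.40 (0.26 in Paneth cells, −0.13 in other cells), then Mrpl39 (0.35), Mrpl44 (0.35), Mrpl33 (0.33), Mrpl50 (0.32) and Mrpl24 (0.32). For Mrpl50 the difference lay in the other cells, with −0.30 there and 0.02 in Paneth cells. Mrpl44 (−0.21) and Mrpl18 (−0.27) were likewise lower in the other cells and did not pass in Paneth cells. Mrpl16, Mrpl40, Mrpl27 and Mrpl42 passed in neither class, so these terms are not rises called in Paneth cells. The term for Mrps28, Mrps5, Mrpl33, Mrpl50 and Mrpl24 passed whichever library was left out. Mrpl39 and Mrpl44 lost it without fl/fl library 1 or IEC-KO library 2. Mrpl16, Mrpl15 and Mrpl40 had differences of 0.25, 0.23 and 0.23, which were also lost without at least one library.

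Between the classes, within a library, the mitochondrial ribosomal protein genes were lower in Paneth cells. After TMM over both classes 37 of 77 genes were lower in Paneth than in other cells and 2 were higher, against 25.9% and 24.7% of all genes, and the median difference was −0.16 on the log2 scale. Mrpl9 was lowest at −1.04 (standard error 0.09), with 5.72 to 7.66 CPM in Paneth and 12.7 to 15 CPM in other cells. Mrps31 (−0.91), Mrpl27 (−0.73), Mrps36 (−0.68) and Mrps28 (−0.68) followed. These differences average over both labels, although the genotype by class term passed the threshold for Mrps28 (0.62) and Mrpl27 (0.22). The 2 higher genes were Mrps12 (0.21), a protein of the decoding site, and Mrpl12 (0.20), which with scaling by library size alone were lower, at −1.34 and −1.35. Both of their calls were lost without fl/fl library 1, which left 0 higher and 30 lower, and without fl/fl library 2 there were 1 and 33. Scaled by library size alone 77 of 77 were lower, with the median of all genes at −1.55 and that of the 77 at −1.71. The counts without an fl/fl library and under this scaling stand without the share of all genes in the same fit.

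The genes around the mitochondrial ribosome were taken from lists of known factors, and their counts too stand beside 20.2% of all genes higher and 19.8% lower in Paneth cells, and 17% and 16.7% in other cells. Of 7 further mitoribosomal proteins that carry other symbols, 4 (57.1%) were higher and 1 (14.3%) lower in Paneth cells (median 0.18), among them Ict1 (0.27), a peptidyl-tRNA hydrolase built into the large subunit whose current symbol is Mrpl58, Gadd45gip1 (0.25) and the GTP-binding small subunit protein Dap3 (−0.19). In other cells 2 were higher and 1 lower, with Ict1 at 0.22 and Ptcd3 at −0.44.

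Of 11 mitochondrial translation factors 1 (9.09%) was higher in Paneth cells, Mrrf, the ribosome recycling factor, at 0.57, and 0 were lower (median 0.06). Mrrf was also higher in the other cells (0.47), where Tsfm, an elongation factor, was lower (−0.33). Of 23 assembly and RNA factors 5 (21.7%, near the share of all genes) were higher and 1 (4.35%) lower in Paneth cells (median 0.13). Mterf3 (0.92), the rRNA methyltransferase Tfb1m (0.90) and Mtg1, a GTPase of large subunit assembly (0.67), led. Of these, Mterf3 was counted low, at 0.70 and 0.77 CPM in fl/fl and 1.20 and 1.51 CPM in IEC-KO Paneth cells. Tfb1m was too, at 0.79 and 0.68 CPM against 1.63 and 1.20 CPM. Their standard errors were 0.20 and 0.21. Rbfa, a factor of small subunit maturation, was at −0.40. In the other cells 2 were higher, Mtg1 (0.70) and Ngrn (0.35), and 2 lower, Fastkd2 (−0.39) and Rbfa (−0.19). Of 9 genes of mitochondrial transcription and replication 3 (33.3%) were higher in Paneth cells and 0 lower, with the helicase gene Peo1 (0.46) first, and 0 higher and 3 lower in other cells, with Tfam, which packages mitochondrial DNA, at −0.30.

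The mRNAs that this ribosome translates were lower relative to the typical gene. In Paneth cells 13 of 13 mitochondrially encoded mRNAs were lower in the IEC-KO libraries, with a median log2 fold change of −0.82, beside 19.8% of all genes. The mRNA of the complex I subunit mt-Nd1 had 846 and 879 CPM in the fl/fl and 398 and 429 CPM in the IEC-KO libraries (−1.06, standard error 0.09, edgeR adjusted p = 3.27e-09). mt-Cytb fell by 1.04 and mt-Co1 by 0.46. In the other cells 9 of 13 were lower (median −0.23), with mt-Nd1 at −0.56. The genotype by class term was past the threshold and negative for 13 of 13, but with scaling by library size alone it was past the threshold and positive for 11 (median 0.28, below the 0.75 of all genes). Scaled by library size alone, 6 of the 13 were still lower in Paneth cells and 0 higher (median −0.20), although values such as that of mt-Co1 (0.16) turned positive.

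Among 23 genes of mitochondrial protein import 8 (34.8%) were higher and 1 (4.35%) lower in Paneth cells (median 0.08), against 20.2% and 19.8% of all genes, led by the matrix chaperone Hspa9, at 32.6 and 31.8 CPM against 82.3 and 76.1 CPM (1.30). Among 11 genes of mitochondrial quality control 3 (27.3%) were higher and 2 (18.2%) lower (median 0.07), near the shares of all genes. The matrix protease Lonp1 had 6.26 and 6.02 CPM against 18.3 and 16 CPM (1.48), and Dnaja3, a partner of Hspa9, rose by 0.91. In the other cells Hspa9, Lonp1 and Dnaja3 were higher by 0.61, 0.71 and 0.38, and Timm10, Timm13 and Timm17b by 0.23 each. Further genes of these lists were lower there. They were Timm8a1 (−0.75), Phb (−0.43), Hspd1 (−0.36), Tomm70a (−0.28), Spg7 (−0.27), Tomm40 (−0.21) and Tomm22 (−0.20). These lists thus had no common direction in the other cells. Among 9 regulators of mitochondrial biogenesis, the coactivator Ppargc1a (−0.83) and its partner Esrra (−0.53) were lower and Yy1 (0.46) higher in Paneth cells, and the median was 0.12. In other cells Ppargc1a was at −0.79, Ppargc1b at −0.56 and Esrra at −0.39, while Pprc1 was higher (0.31). Myc and Nrf1 did not pass in either class, with 0.17 and −0.08 in Paneth cells.

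**Figure D4:**
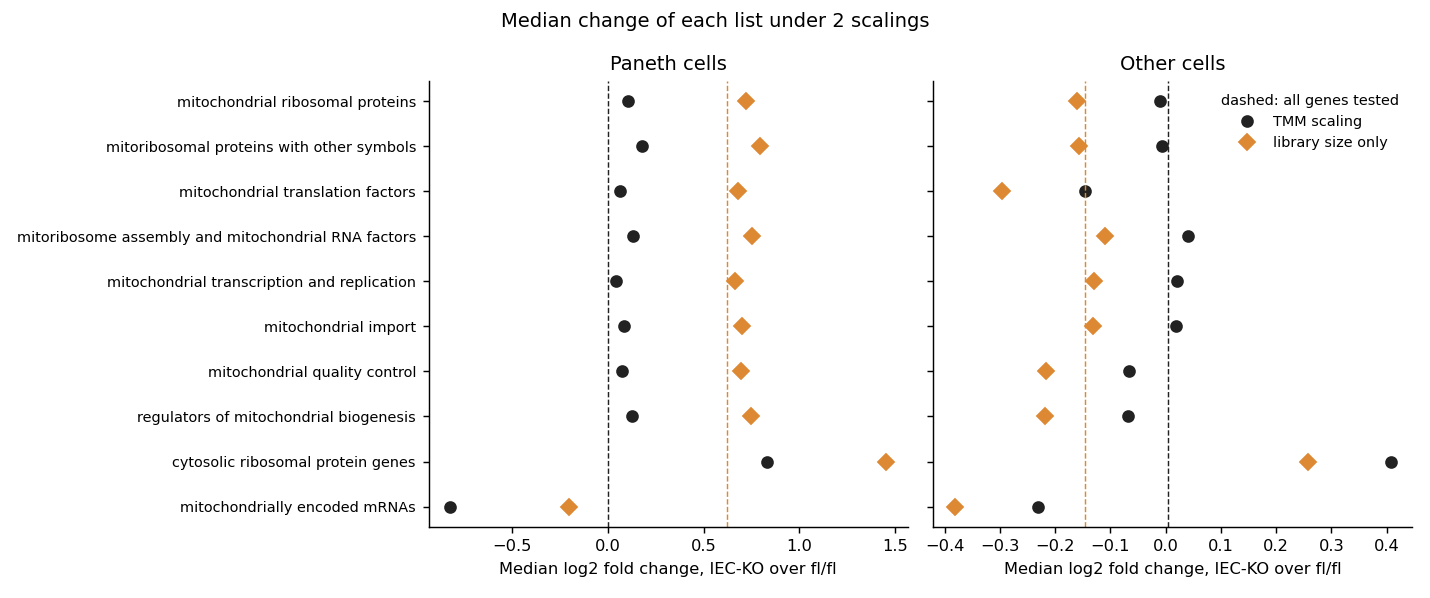
Median log2 fold change (IEC-KO over fl/fl) of the 77 mitochondrial ribosomal protein genes and of 9 other lists in Paneth cells (left) and other cells (right), with TMM scaling (black) and scaling by library size alone (orange); dashed lines are the medians of all genes tested. Cytosolic ribosomal protein genes lay above and mitochondrially encoded mRNAs below the line of all genes in both classes. The 77 genes lay 0.10 above it in Paneth cells (0.055 without fl/fl library 1). A change of scaling shifts all genes nearly alike, so distances to the line hardly depend on it.

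Promoters are shown for the genes that rose or fell most in Paneth cells, so that both directions can be compared: the 3 largest rises and the 2 largest falls among genes with an entry. RefSeq promoters (250 bases before to 50 after the start, GRCm38.p6) were at hand for 68 of the 77 genes, with 74 starts in all. Mrps28 and Mrpl4 had no entry. Each line below gives the 120 bases before and the first 30 bases of the transcript, 5′ to 3′ on the gene's strand, with capitals for matches to an ETS motif (CCGGAAG) or an NRF1 motif (GCGC, any base, then TGCGC) on either strand.
Mrpl52 (chr14:54426789-54426938, plus strand): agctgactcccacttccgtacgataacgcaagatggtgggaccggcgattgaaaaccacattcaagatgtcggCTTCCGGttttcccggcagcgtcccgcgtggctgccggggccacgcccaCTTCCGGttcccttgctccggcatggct
Mrpl33 (chr5:31613831-31613980, plus strand): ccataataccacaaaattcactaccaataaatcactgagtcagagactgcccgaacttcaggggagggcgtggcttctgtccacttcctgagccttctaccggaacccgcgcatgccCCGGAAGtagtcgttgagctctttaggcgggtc
Mrpl24 (chr3:87919424-87919573, plus strand): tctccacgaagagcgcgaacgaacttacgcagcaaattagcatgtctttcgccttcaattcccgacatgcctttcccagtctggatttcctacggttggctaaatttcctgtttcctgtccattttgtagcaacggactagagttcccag
Mrps36 (chr13:100744630-100744779, minus strand): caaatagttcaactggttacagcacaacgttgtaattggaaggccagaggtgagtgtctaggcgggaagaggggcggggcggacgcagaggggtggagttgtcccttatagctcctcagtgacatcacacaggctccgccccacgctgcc
Mrpl28 (chr17:26123383-26123532, plus strand): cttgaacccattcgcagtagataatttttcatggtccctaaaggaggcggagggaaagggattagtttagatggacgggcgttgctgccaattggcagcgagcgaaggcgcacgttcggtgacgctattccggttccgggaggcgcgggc

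The Mrpl52 stretch holds 2 ETS matches and that of Mrpl33 1. In those of Mrpl24, Mrps36 and Mrpl28 neither motif was found. Neither was found in the same stretches of Mrpl23 and Mrpl2, not printed here, while that of Mrpl12, also lower, had an NRF1 match. Over the whole windows of 300 bases and both strands, the ETS letters were found in 33.8% of the 74 promoters and in 8.86% of all 32851 in the table. The NRF1 letters were in 17.6% and 4.6%, the letters of a YY1 motif (AANATGGC) in 27% and 6.05%, and those of an E-box (CACGTG) in 9.46% and 7.15%. Several starts of a gene count separately in these shares. Counted by gene, the E-box was no more frequent, in 7.35% of the 68 genes and 8.09% of all genes. The promoters of the cytosolic ribosomal protein genes held the ETS letters in 37.3%, the YY1 letters in 22.4%, the E-box in 11.9% and the NRF1 letters in 7.46%, so that frequent ETS and YY1 matches were common to both sets. An amino acid response element (TGATGNAA) was in 0 of the 74 and in 3.97% of all. Among the 18 promoters of genes higher in Paneth cells 7 held the ETS letters and 5 the NRF1 letters. Among the 7 promoters of the 5 lower genes with an entry these were 0 and 2. The YY1 letters were in 2 of the 18 and 0 of the 7, and the E-box in 2 and 3. The 3 with the E-box were starts of 1 gene. These are matches of letters and not binding sites.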

How the data were processed

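Per the labels and the file headers, the authors deposited UMI counts, a matrix of 27998 genes by called cell barcodes for each of 4 libraries, unnormalized. The submitters' processing notes name Cell Ranger 2.1.1 and mm10, while the study's methods name another release of Cell Ranger. All 26498 barcodes were kept (each had at least 200 genes), doublets included. Libraries shared at most 132 barcodes. The genes, lists and class limits were chosen with earlier results of these data known. Other cells were called cycling-rich at 0.1% or more and goblet-rich at 5% or more of UMIs in the marker lists, limits set after the first limits (0.3% and 1%) had put every other cell in the goblet-rich part. Cells between 20% and 30% Defa were left out of both classes.

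UMIs were summed per library and class and tested with edgeR 4.0.16 (R 4.3.3, TMM, filterByExpr, quasi-likelihood F-test, two-sided) with Benjamini-Hochberg adjustment at 0.05 over all genes tested. The standard error is the log2 fold change over the square root of F. CPM are TMM-scaled within each fit. With 2 libraries per group an exact permutation test cannot go below p = 0.333, so summed shares were given without a test. On simulated Paneth cell sums (12469 genes, 200 changed), 99% of 2-fold and 68% of 1.41-fold changes were recovered. The simulation changed only well-counted genes, far fewer than passed in the data, with a common dispersion and none by less than 1.41-fold. Most changes of the 77 genes were smaller, so it does not give their rate of recovery. In each class the genes named are the 10 largest and 10 smallest log2 fold changes past the threshold without overlap of the libraries, all past the threshold against the majority, the 10 largest genotype by class terms, the 5 largest and 5 smallest class differences, Mrps36, Mrps18a, Mrps30, Mrpl12, Mrpl10 and Mrpl58, and up to 4 leading genes of each other list. Mrpl53 and the genes listed to complete a count were added after their values were seen. Positions are those of GENCODE M21 (GRCm38). 5 of the 77 genes overlap another gene on the same strand (Mrpl2, Mrpl53, Mrps24, Mrps34 and Mrps6) and 28 one on the opposite strand. Alternatives were library size scaling, TMM without Defa and cytosolic ribosomal genes, DESeq2 1.42.0, looser and stricter count filters, a block for the replicate number, cells thinned to 2000 UMIs, a common lower limit of 9670 UMIs, other class limits, simulated doublets left out, and each library left out.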

Additional observations from a re-analysis of the deposited data

Results flagged for a closer look

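The change between the labels differed between Paneth and other cells, by the genotype by class term of edgeR, in 15 of the 77 genes, where 11% of all genes passed in the same direction. The differences of the log2 fold changes were 0.62 for Mrps28, 0.40 for Mrps5, 0.35 for Mrpl39, 0.35 for Mrpl44, 0.33 for Mrpl33, 0.32 for Mrpl50, 0.32 for Mrpl24, 0.25 for Mrpl16, 0.23 for Mrpl15 and 0.23 for Mrpl40. They were 0.22 for Mrpl27, 0.22 for Mrps15, 0.19 for Mrpl23, 0.19 for Mrpl18 and 0.16 for Mrpl42. The 5 members with the call in each fit that left out 1 library were Mrps28, Mrps5, Mrpl33, Mrpl50 and Mrpl24. Only 1 of the 15, Mrps28, kept its call under every setting tried other than scaling by library size alone. Groups of 2 libraries are too small to test for a library that stands apart.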

How the results depend on the processing

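Thinning every cell to 2000 UMIs left 7 higher and 1 lower of the 77 genes in Paneth cells (median log2 fold change 0.044), 5 and 3 in other cells, 4 and 1 in the goblet-rich part, 0 higher in the remaining part, 2 genotype by class terms, and 20 lower in Paneth than in other cells. Thinning lowers the UMIs and the genes tested (7417 against 12492 in Paneth cells) and weights every cell alike, and which of these moved the counts and the median was not tested. For the settings below the cause was not tested either. The counts in this section are given without the share of all genes past the threshold in the same fit. They do not show whether the 77 genes moved apart from all genes.

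With scaling by library size alone there were 76 higher and 0 lower in Paneth cells (median 0.72), 1 and 35 in other cells (−0.16), 4 and 18 in the goblet-rich part (−0.056), 76 positive genotype by class terms (0.84), and 0 higher and 77 lower in Paneth than in other cells (−1.71). The sign then turned in Paneth cells for Mrps36 (0.20), Mrpl4 (0.33), Mrpl28 (0.37), Mrpl2 (0.37), Mrpl12 (0.42) and Mrpl14 (0.43), in the genotype by class term for Mrps36 (0.70) and Mrpl12 (0.65), and between the classes for Mrps12 (−1.34), Mrpl12 (−1.35) and Mrps18a (−1.54).

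DESeq2 called 11 higher and 2 lower in Paneth cells, 5 and 4 in other cells, 4 and 2 in the goblet-rich part, 1 higher in the remaining part and 4 genotype by class terms. With a common lower limit of 9670 UMIs there were 4 higher in other cells, 2 lower in the goblet-rich part and 1 higher in the remaining part. With other cells under 10% Defa, 5 were higher in them. Paneth cells at 50% Defa could not be fitted, since 3 libraries held 0 such cells. Among settings chosen after seeing the data, Paneth cells at 35% and other cells under 10% gave 5 higher in other cells and 7 positive genotype by class terms, Paneth cells at 20% gave 3 negative terms, and other limits for the parts of the other cells gave 1 lower in the remaining part. Without a filter on low counts there was 1 higher in the remaining part and there were 8 positive and 1 negative terms. At least 10 counts in every sum gave 1 negative term. Not every count of these settings is listed. Where only negative terms are named, the positive terms of that setting are left out, so the direction did not necessarily turn.

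Leaving out 1 library at a time gave 10 to 25 higher and 2 to 8 lower in Paneth cells (median 0.054 to 0.11), 3 to 16 and 6 to 16 in other cells, 4 to 18 and 2 to 14 in the goblet-rich part, 0 to 1 higher in the cycling-rich part, 1 to 3 in the remaining part, 8 to 17 positive and 0 to 2 negative terms, and 0 to 2 higher in Paneth than in other cells. The log2 ratio of summed shares, 0.74 in Paneth cells, was 0.61 outside Defa symbols. Outside Defa symbols and cytosolic ribosomal genes it was −0.0086 in other cells (−0.09 of all UMIs) and 0.073 in the goblet-rich part (−0.02 of all UMIs).

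Libraries with the same replicate number deviated from their group means with a correlation of 0.02 in Paneth cells, 0.17 in other cells and 0.22 in the goblet-rich part, over 2 pairs and with nothing in the labels to pair them, so the number was taken as a name only. A fit with the replicate block gave 21 higher and 6 lower in Paneth cells, 10 and 12 in other cells, 14 and 5 in the goblet-rich part, 0 and 0 in the cycling-rich part and 3 and 0 in the remaining part.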
